A study of Homo sapiens with 16 samples.

Results

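The EGR and NR4A genes encode early transcription factors, and NAB1 and NAB2 encode proteins that bind EGR factors. The 8 genes EGR1, EGR2, EGR3, NR4A1, NR4A2, NR4A3, NAB1 and NAB2 were taken by symbol, and all 8 were matched among the 60662 gene identifiers of the deposited tables. RNA-seq read counts were deposited for 16 libraries of Jurkat E6-1, a T cell line established from human leukaemia that the labels list as wild type and as lymphoma. The 8 controls were untreated cells at 0 h. The 8 peroxide libraries came from cells kept for 4 h in phosphate-buffered saline with 10 µM hydrogen peroxide, after growth in medium with serum. No saline-only group was analysed here, so 4 h of time, the change of medium and peroxide cannot be told apart. All libraries are of 1 cell line, and the labels call the libraries within a group biological replicates without saying what separates them, so p-values measure the spread between these libraries.

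EGR factors bind GC-rich DNA through zinc fingers, and their genes are switched on within minutes of growth factor or antigen receptor signals through serum response factor (SRF), its ETS partners and CREB. NR4A factors are orphan nuclear receptors that need no ligand, and in T cells they are induced through calcium and the T cell receptor. NAB1 and NAB2 are co-repressors that dock on EGR1, EGR2 and EGR3, and NAB2 is itself a known EGR target. In T cells, EGR2, EGR3 and the NR4A factors are known for their part in tolerance and exhaustion.

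Each library held 5556553 to 15720881 reads assigned to genes, and the tables' names split each group into 4 libraries of batch 1 and 4 of batch 2; the labels do not say what a batch is. Levels are given as CPM, counts scaled by each library's reads in tested genes and by its TMM factor, which sets libraries on a common scale. All 12 T cell markers looked at had a mean of 1 CPM or more. Their summed level was 2782 to 3770 CPM in controls and 2834 to 3709 CPM after peroxide. Of these 12, 4 were called lower and none higher, against 24.3% and 24.1% of all genes tested. LAT, an adaptor of T cell receptor signalling, stood at -1.503 ± 0.13 on the log2 scale with no overlap between groups. CD3G stood at -0.48 ± 0.09, CD2 at -0.25 ± 0.07 and CD28 at -0.22 ± 0.08. Of 7 B cell markers 3 had a mean of 1 CPM or more, with MS4A1, CD79B and PAX5 among those below it, and the B cell sum was 60.7 to 102.2 CPM in controls and 58.6 to 102.6 CPM after peroxide. Of 6 erythroid and stromal markers only COL1A1 reached 1 CPM, with HBB and COL1A2 among those at 0 reads and sums of 3.19 to 4.76 CPM in controls and 3.25 to 6.64 CPM after peroxide. The 7 myeloid markers summed to 0.125 to 1.34 CPM in controls and 4.46 to 14.2 CPM after peroxide, with S100A8 at 0 reads and only CD14 and ITGAM at 1 CPM or more, both called higher. These 2 genes averaged 0.267 and 0.161 CPM in controls, below the filter's cutoff of 1.14 CPM. They thus entered the test through the group in which they were high. The part of these markers in the results below was not tested.

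Start-site sequences are shown for the 5 genes whose windows held a motif of SRF, CREB or EGR factors. RefSeq promoter windows (GRCh38.p14, 250 bases before to 50 after each start) were found for 6 of the 8 genes, 11 windows in all. Both strands were searched for the CArG box that SRF binds, for TGACG, the core of the CREB site, and for the EGR-type sites GCGTGGGCG and GCGGGGGCG. The full CREB site TGACGTCA, which contains TGACG, the NR4A site AAAGGTCA and the MEF2 site were searched too, are held by 1.85%, 1.22% and 2.99% of all windows, and matched none of the 11. Below are the 150 bases before the start, 5′ to 3′ on the gene's strand, with matches in capitals; CGTCA is TGACG on the other strand.
EGR1: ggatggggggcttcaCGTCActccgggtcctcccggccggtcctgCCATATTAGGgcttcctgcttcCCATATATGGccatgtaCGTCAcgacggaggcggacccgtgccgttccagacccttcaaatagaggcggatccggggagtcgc
EGR2: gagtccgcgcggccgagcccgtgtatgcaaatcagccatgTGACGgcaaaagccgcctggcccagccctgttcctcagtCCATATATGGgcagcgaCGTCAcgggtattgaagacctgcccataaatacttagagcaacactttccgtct
NR4A3: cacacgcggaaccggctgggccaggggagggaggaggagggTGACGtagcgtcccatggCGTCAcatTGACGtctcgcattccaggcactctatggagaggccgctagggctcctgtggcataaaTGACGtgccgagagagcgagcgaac
NAB1: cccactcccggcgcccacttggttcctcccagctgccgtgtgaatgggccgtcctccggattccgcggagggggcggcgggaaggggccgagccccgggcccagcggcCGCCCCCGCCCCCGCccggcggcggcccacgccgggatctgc
NAB2: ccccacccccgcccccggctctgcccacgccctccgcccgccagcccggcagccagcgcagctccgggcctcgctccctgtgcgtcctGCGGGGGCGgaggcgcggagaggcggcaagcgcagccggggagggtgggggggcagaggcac

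The stretches lie at chr5:138465329-138465478 on the plus strand for EGR1, chr10:62816367-62816516 on the minus strand for EGR2, chr9:99821735-99821884 (plus) for NR4A3, chr2:190648745-190648894 (plus) for NAB1 and chr12:57088964-57089113 (plus) for NAB2, all upstream of the annotated start. EGR1 held 2 CArG boxes, beginning 105 and 83 bases before the start, and 2 TGACG cores. EGR2 held 1 CArG box, 71 bases before the start, and 2 TGACG cores; of its 3 annotated starts only this one had a match. NR4A3 held 4 TGACG cores and no CArG box. Of all 35116 windows, 1.29% held a CArG box and 0.0313% held 2 or more. TGACG was held by 24.6%, 2 or more of it by 6.02% and 4 or more by 0.313%. Both a CArG box and TGACG were held by 0.273%. NAB2 held 1 GCGGGGGCG, which 5.07% of windows contain. NAB1 held 2 overlapping GCGGGGGCG matches on the other strand. Of all windows, 0.584% held 2 or more such matches on either strand, overlapping or not. The full NAB1 window also had 1 TGACG across the start and 1 GCGTGGGCG (0.795% of windows) 14 bases after it. NAB1 has 3 annotated starts. From another of them the same matches began 175 to 230 bases upstream, and the window of the last had only 1 TGACG. The 2 NR4A1 windows had no match. These are matches of letters, not measured binding, and which start Jurkat cells use was not tested.

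The comparison asked how each gene differed between peroxide-treated and untreated cells. Of the 8 genes, 5 were called higher (EGR1, EGR3, NR4A1, NR4A3 and NAB2), NAB1 was called lower, EGR2 was not called and NR4A2 was too scarce to test. Calls are those with an adjusted p below 0.05 in the quasi-likelihood test of edgeR over 14092 genes, of which 24.1% were called higher (3391) and 24.3% lower (3419). With total-count scaling, which moved the median of all genes by -0.06 on the log2 scale, 2822 were higher and 4375 lower, and the 8 genes kept 5 higher and 1 lower. In batch 1 alone 6 of the 8 were higher and 1 lower, where 20.4% and 17.2% of genes were, and in batch 2 alone 3 were higher and 1 lower, where 19.4% and 19.1% were. Only NR4A1 and NR4A3 had every peroxide library above every control, which held for 6.76% of genes tested. EGR2, EGR3 and NR4A3 reached the level the filter asks for in 4, 4 and 2 controls but in all 8 peroxide libraries, so they entered the test through the group in which they were high. In bulk RNA, more cells expressing a gene and more RNA per cell cannot be told apart.

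**Figure D1:**
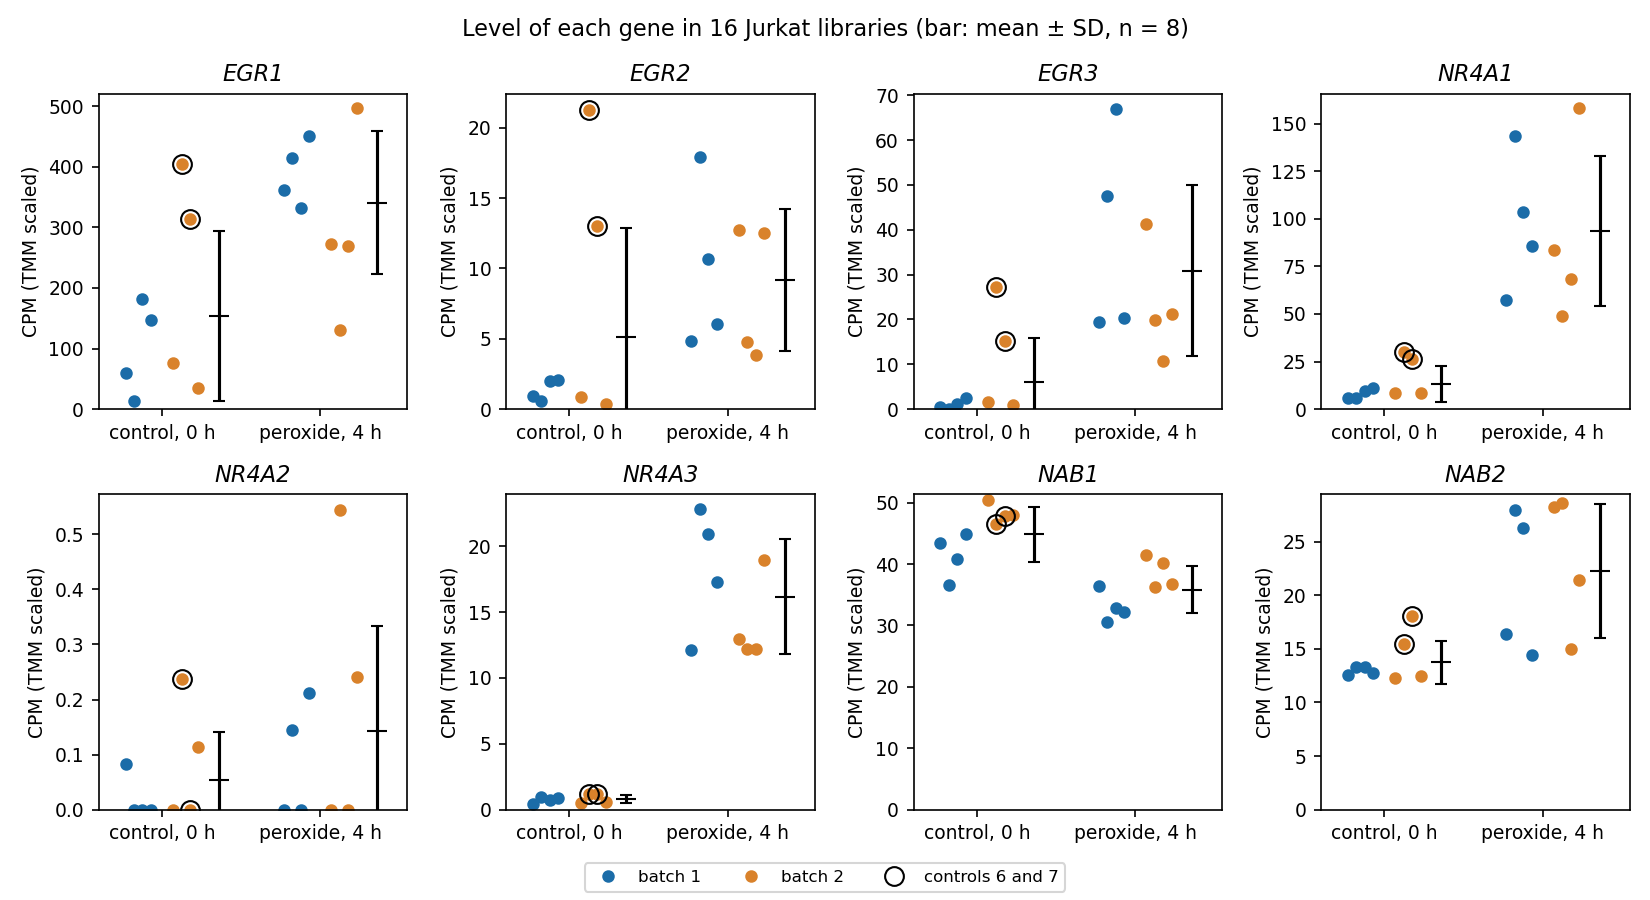
Level of each of the 8 genes (CPM with TMM scaling, linear axes from 0) in 8 control and 8 peroxide libraries, coloured by batch, with the mean ± SD beside each group (lower ends below 0 are cut at the axis). NR4A1 and NR4A3 separate the groups, while controls 6 and 7 (ringed) lie within the peroxide range for EGR1 and EGR3, and for EGR2 control 6 lies above it.

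NR4A3 (ENSG00000119508.18), also called NOR1, had the largest fold change of the 7 genes tested over all 16 libraries; EGR3 was above it in batch 1 alone and without controls 6 and 7. Controls held 0.415 to 1.19 CPM (median 0.793), and peroxide libraries 12.2 to 22.8 CPM (median 15.1). No peroxide library came near the control range, although the controls rest on only 69 reads in all. The log2 fold change was 4.24 ± 0.21 (SE), an 18.9-fold rise (Benjamini-Hochberg adjusted p = 1.01e-12 from the quasi-likelihood test of edgeR). It was 4.69 ± 0.28 in batch 1 and 3.89 ± 0.25 in batch 2.

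NR4A1 (ENSG00000123358.20), or Nur77, widely used as a reporter of T cell receptor signalling, ran from 5.98 to 29.8 CPM in controls (median 9.0) and from 48.8 to 158.1 CPM after peroxide (median 84.8). The groups did not overlap, but the 2 highest controls, 6 and 7, stood at 29.8 and 26.2 CPM while the other 6 held at most 10.9 CPM. The log2 fold change was 2.82 ± 0.31, a 7.08-fold rise (adjusted p = 2.06e-07, edgeR, Benjamini-Hochberg). It was 3.57 ± 0.26 in batch 1 and 2.22 ± 0.39 in batch 2. In GENCODE release 29, 10.3% of the exon bases of NR4A1 overlap an antisense gene, and reads there cannot be assigned without knowing the strand setting.

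NR4A2 (ENSG00000153234.14), or Nurr1 and the remaining member of the family, stayed near 0 in both groups. It had 6 reads over all controls and 10 over all peroxide libraries. In 5 controls and 4 peroxide libraries it had no read, which allows up to 0.236 to 0.563 CPM by library (3 reads, counting error only). A difference between the groups was not detectable at this depth.

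EGR1 (ENSG00000120738.8), the best studied factor of the family, ran from 13.3 to 404.3 CPM among untreated libraries (median 111.1) and from 130.4 to 496.5 CPM after peroxide (median 347.2). In batch 1 controls 1 to 4 held 59.2, 13.3, 181.6 and 146.3 CPM, and in batch 2 controls 5 to 8 held 75.8, 404.3, 313.0 and 34.7 CPM. The peroxide libraries held 361.9, 413.7, 332.5 and 451.0 CPM in batch 1 and 272.4, 130.4, 268.5 and 496.5 CPM in batch 2. All peroxide libraries of batch 1 lay above all its controls, whereas in batch 2 controls 6 and 7 exceeded 3 of the 4 peroxide libraries. Over all 16 libraries the log2 fold change was 1.21 ± 0.46, or 2.31-fold (adjusted p = 0.0336, edgeR, Benjamini-Hochberg). It was 1.94 ± 0.45 in batch 1 (adjusted p = 0.00321, edgeR) and 0.48 ± 0.56 in batch 2 (adjusted p = 0.522, edgeR). Without control 1, 4 or 5 or peroxide 4 or 8 the call was lost (adjusted p up to 0.0725, edgeR), as it was with DESeq2 (adjusted p = 0.0502).

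EGR2 (ENSG00000122877.16), or KROX20, was scarce in most controls. Controls 1 to 4 held 0.914, 0.563, 2.01 and 2.08 CPM, controls 5 and 8 held 0.876 and 0.343 CPM, and controls 6 and 7 held 21.2 and 13.05 CPM. Peroxide libraries held 3.86 to 17.9 CPM (median 8.36). All 8 peroxide libraries thus exceeded 6 of the controls, but none exceeded control 6. The log2 difference was 0.88 ± 0.57 over all libraries and did not pass (adjusted p = 0.217, edgeR, Benjamini-Hochberg). It was 2.73 ± 0.43 in batch 1 (adjusted p = 0.000170, edgeR), where the gene was called higher, and -0.22 ± 0.69 in batch 2. Without control 6 alone it was 1.56 and passed (adjusted p = 0.0196, edgeR).

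EGR3 (ENSG00000179388.9), a close relative of EGR2 in sequence and function, was at or near 0 in most controls. Controls 1 to 5 and 8 held 0 to 2.45 CPM, against 27.2 and 15.1 CPM in controls 6 and 7. Peroxide libraries held 10.7 to 66.8 CPM (median 20.8). The 3 highest, peroxide 2, 3 and 5, exceeded every control. The log2 fold change of 2.32 ± 0.62, or 5.00-fold, passed (adjusted p = 0.00371, edgeR, Benjamini-Hochberg). It was 5.17 ± 0.53 in batch 1 (adjusted p = 2.75e-06, edgeR) and 0.92 ± 0.61 in batch 2 (adjusted p = 0.255, edgeR). An interaction of batch and treatment was called for EGR3 (-4.25 ± 1.10, Benjamini-Hochberg adjusted p = 0.0304 from the quasi-likelihood test of edgeR), in a test that called 4.88% of genes. For the other 6 genes tested it was not called, with estimates of -2.94 ± 1.06 for EGR2, -1.46 ± 0.83 for EGR1 and -1.35 ± 0.56 for NR4A1. The EGR3 interaction fell to -0.92 ± 1.24 without controls 6 and 7 (adjusted p = 0.731, edgeR), and its call was also lost with limma-voom and without any 1 of control 1, 2, 3, 6 or 7 or peroxide 3.

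EGR4 (ENSG00000135625.8), the remaining EGR gene, ranged from 0 to 2.97 CPM in controls and from 2.19 to 7.92 CPM after peroxide. Its highest controls were again 6 and 7, at 2.97 and 2.20 CPM, and the other 6 were at or below 0.612 CPM. It reached the filter's level in 2 controls and all 8 peroxide libraries, so it too entered the test through the group in which it was high. The log2 fold change was 2.33 ± 0.47 (adjusted p = 0.000324, edgeR, Benjamini-Hochberg), with 4.10 ± 0.56 in batch 1, 1.61 ± 0.54 in batch 2, 3.01 without control 6 and 4.40 ± 0.49 without controls 6 and 7. WT1, which shares the zinc finger fold, fell by 0.42, from 18.7 ± 5.18 to 14.3 ± 5.68 CPM (SD, n = 8 each; adjusted p = 0.00724, edgeR), a call that did not hold within batch 2 or with batch left out of the fit.

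The pair of co-repressors moved in opposite directions and by less. NAB2 (ENSG00000166886.13) ran from 12.3 to 18.1 CPM in controls (median 13.02) and from 14.4 to 28.6 CPM after peroxide (median 23.9). Peroxide 1, 4 and 7, at 16.4, 14.4 and 15.02 CPM, lay within the control range and the other 5 above it. NAB2 rose by 0.68 ± 0.15 on the log2 scale, 1.604-fold (adjusted p = 0.000558, edgeR, Benjamini-Hochberg), with 0.70 ± 0.19 and 0.66 ± 0.19 in batches 1 and 2. STAT6 on the opposite strand shares 2.29% of its exon bases, and opposite-strand genes share 3.38% of those of EGR3 and 4.01% of those of NAB1, in GENCODE release 29.

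NAB1 (ENSG00000138386.17) ran from 36.6 to 50.4 CPM in controls (median 45.7) and from 30.5 to 41.5 CPM after peroxide (median 36.4). Within each batch every peroxide library was below every control: 36.6 to 44.9 against 30.5 to 36.5 CPM in batch 1 and 46.6 to 50.4 against 36.3 to 41.5 CPM in batch 2. The log2 fold change was -0.33 ± 0.06 (adjusted p = 0.000134, edgeR, Benjamini-Hochberg). It was -0.34 ± 0.10 in batch 1 and -0.32 ± 0.07 in batch 2.

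**Figure D2:**
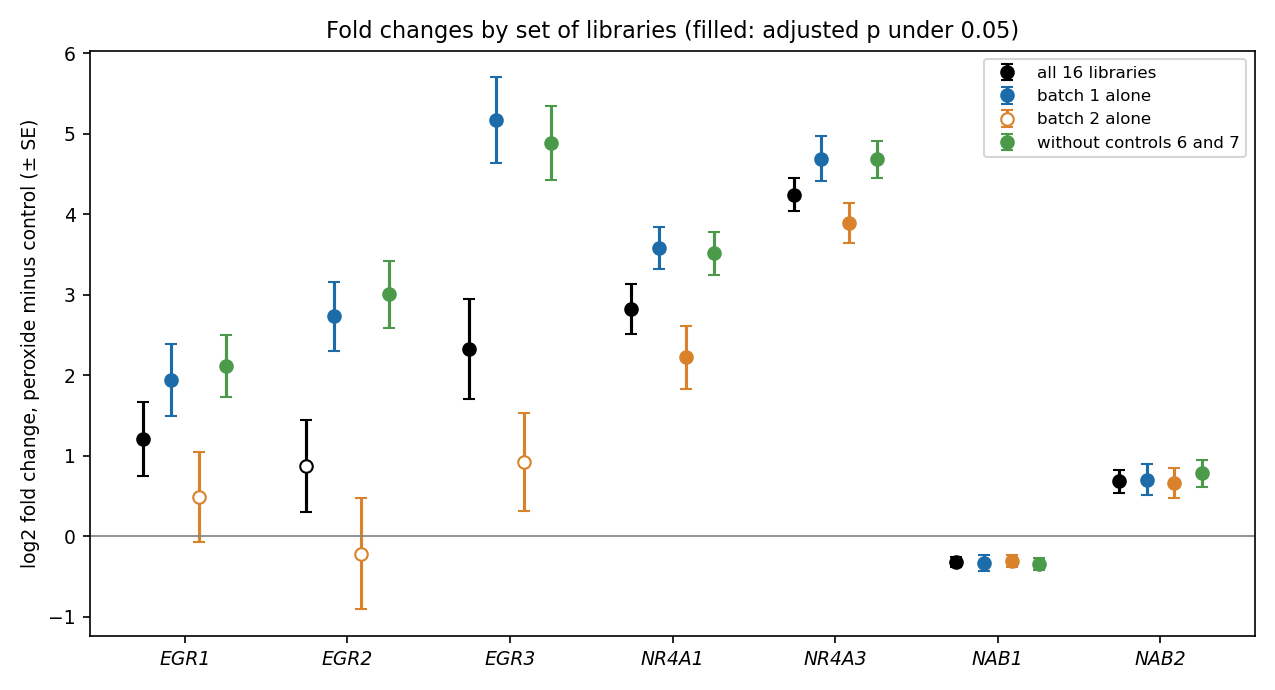
Log2 fold change (peroxide minus control, ± SE) of the 7 genes tested, from all 16 libraries, each batch alone (n = 4 per group) and without controls 6 and 7; filled points passed an adjusted p of 0.05. Batch 2 alone gave lower values than batch 1 for the EGR genes and both NR4A genes, from -0.22 for EGR2 to 3.89 for NR4A3, while the NAB values differed little between settings.

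Controls 6 and 7 stood apart for most of these genes. Their mean was 19.6 times that of the other 6 controls for EGR3, 15.2 times for EGR2, 4.21 times for EGR1 and 3.42 times for NR4A1. NR4A3 was 1.77 times and NAB2 1.31 times the mean of the others, and NAB1 1.07 times. For EGR1, EGR2, EGR3, NR4A1, NR4A3 and NAB2 both libraries exceeded all 6 other controls, which was so for 14.5% of genes tested, and a ratio of 2 or more was found in 2.32%. Controls 6 and 7 were singled out for their EGR levels, so these ratios and shares are a description and not a test. CD69, a surface marker of early T cell activation, followed the same pattern, with 89.8 and 45.7 CPM in controls 6 and 7 and 7.51 to 26.1 CPM in the others. Over gene counts as a whole, the batch 2 controls split the same way. Chi-square per degree of freedom was 2.96 between controls 6 and 7 and 2.98 between controls 5 and 8. From controls 6 and 7 to controls 5 and 8 it was 5.82 to 7.82. Controls 6 and 7 had 15720881 and 11870965 reads in genes, with only control 1, at 12310653, between them among controls. The part of depth or handling was not tested.

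Leaving out controls 6 and 7 made the difference of each of the 7 genes tested larger in size. The log2 fold change was then 2.11 ± 0.38 for EGR1, 3.00 ± 0.41 for EGR2, 4.88 ± 0.46 for EGR3, 3.51 ± 0.27 for NR4A1 and 4.68 ± 0.23 for NR4A3, with adjusted p-values of at most 0.000142 (edgeR, Benjamini-Hochberg). NAB2 stood at 0.78 ± 0.16 and NAB1 at -0.35 ± 0.07, both still called. CD69 went from 0.02 ± 0.33, not called, to 0.80 ± 0.18 (adjusted p = 0.00122, edgeR). In batch 1 alone it was 0.81 ± 0.23 and called higher (adjusted p = 0.0121, edgeR). Since these controls were singled out for their EGR levels, the values without them are a description.

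Batches were also compared within each group. Among controls, batch 2 was higher than batch 1 by 3.53 ± 0.92 for EGR3, 2.73 ± 0.81 for EGR2, 1.23 ± 0.44 for NR4A1 and 0.21 ± 0.08 for NAB1 on the log2 scale (adjusted p = 0.00403, 0.0102, 0.0304 and 0.0444, edgeR, Benjamini-Hochberg), where 22.1% of genes were called higher. For EGR3, EGR2 and NR4A1 this difference lay in controls 6 and 7. Controls 5 and 8, also of batch 2, did not exceed the highest batch 1 control for these genes (2.45, 2.08 and 10.9 CPM). For NAB1 every batch 2 control lay above every batch 1 control. Among peroxide libraries only NAB1 passed among the 7 genes, at 0.23 ± 0.09 (adjusted p = 0.0404, edgeR), where 17.9% were called higher. For EGR1, EGR2, EGR3, NR4A1 and NR4A3 the peroxide estimates were -0.72 to -0.12 and none passed.

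**Figure D3:**
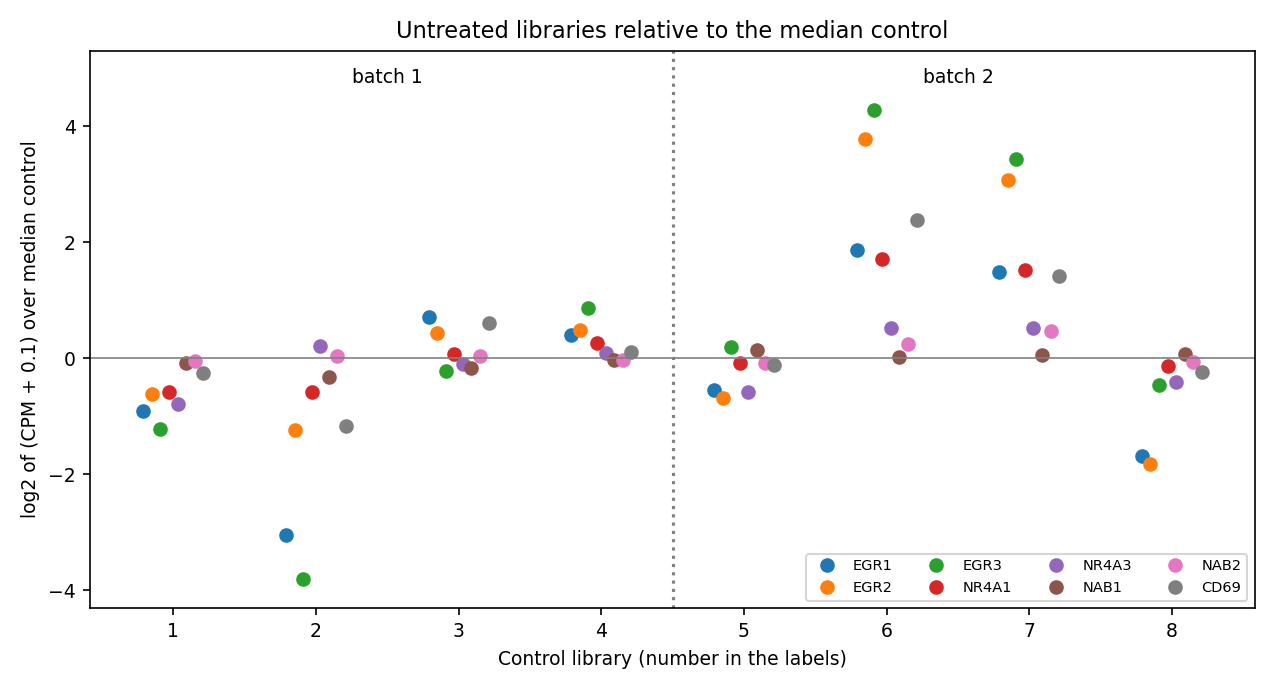
Untreated libraries 1 to 8 on the x axis and, on the y axis, log2 of the ratio of each library's CPM to the median control (0.1 added to both) for 7 genes and CD69. Controls 6 and 7 are the 2 highest for all but NAB1, and EGR2 and EGR3 lie furthest from the median there.

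The EGR genes and NR4A1 also varied together between libraries of the same group and batch. After the mean of each group and batch was taken away, Pearson's r over 16 libraries was 0.92 between EGR2 and EGR3, 0.90 between EGR2 and NR4A1, 0.86 between NR4A1 and NR4A3 and 0.43 between EGR1 and NR4A3. Without the 4 controls of batch 2 these were 0.82, 0.86, 0.76 and 0.07 over 12 libraries. EGR1 had an r of 0.80 with EGR2, 0.82 with EGR3 and 0.78 with NR4A1, and EGR3 one of 0.79 with NR4A1. Over the 12 libraries these fell to 0.63, 0.66, 0.62 and 0.55. NAB1 had an r of -0.58 with NR4A3 and -0.34 with NAB2. These values are descriptions over libraries that share depth and handling.

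Over the 10809 genes averaging at least 5 CPM, the 3 most like EGR1 by this measure were FOS (r = 0.98), IER2 (0.93) and FOSB (0.92), all immediate early genes. EGR2 was most like DUSP2 (0.95), a nuclear MAP kinase phosphatase, FOSB (0.94) and EGR3. EGR3 was most like TNFSF9 (0.95), the ligand of 4-1BB, and then EGR2 and DUSP2. NR4A1 was most like DUSP2 (0.95), IER2 (0.93) and NLRX1 (0.92). The nearest genes of NR4A3 were STX8, ATP6V0A1 and SELENOW (0.89 each), those of NAB1 included SLC25A15 and IPO11 (0.91 each), and those of NAB2 were PIMREG (0.94), VPS18 (0.91) and GNB1L (0.89). Each r named here, taken again without the batch 2 controls, was 0.798 or more.

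Other immediate early genes, listed for comparison, mostly rose. Of 24 listed, 22 were tested, 20 were called higher and DUSP2 and MYC lower, with a median log2 fold change of 2.19 against -0.01 over all genes. Among those called higher, ARC and KLF4 averaged 0.760 and 0.635 CPM in controls, under the filter's level. ARC and KLF4 thus entered the test, the count and the median through the group in which they were high. JUN rose by 5.25 ± 0.28 and JUND by 3.05 ± 0.15 (both AP-1 subunits), FOSL2, another AP-1 subunit, by 2.19 ± 0.12 and the survival factor MCL1 by 1.84 ± 0.10. MYC fell by 0.68. DUSP2, the gene whose library-to-library pattern was among the nearest to EGR2, EGR3 and NR4A1, fell by 0.77, a call lost without controls 6 and 7 (-0.26 ± 0.32), with DESeq2 and without any 1 of 10 single libraries. This list, like the others below, was chosen with earlier results known, and the counts describe it only. They are read against the 24.1% of all genes called higher and 24.3% called lower.

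Of 14 SRF, ETS partner and CREB pathway genes upstream of EGR genes, 6 were called higher and 2 lower, with a median log2 fold change of 0.13 (5 and 3 with total-count scaling). ATF1, a CREB relative, rose by 0.65 ± 0.09 and the CREB coactivator CRTC1 by 0.46 ± 0.08, and ELK3 and MRTFB fell by 0.48 and 0.35. Of 17 tested genes of calcium, NFAT and MEF2 signalling, 6 fell and 2 rose, with a median of -0.08 (7 and 2 with total-count scaling). Taken in both directions, the calls in these 2 lists were near the share over all genes. NFATC3 fell by 0.44, NFATC2 by 0.39 and CABIN1, an inhibitor of calcineurin and MEF2, by 0.38. MEF2D, a MEF2 factor that binds the NR4A1 promoter in T cells, rose by 0.56 ± 0.09 and the MEF2 repressor HDAC5 by 0.44 ± 0.08.

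NuRD is the chromatin complex that NAB2 recruits through CHD4. Of 13 NuRD genes tested, 4 rose and 2 fell, with a median log2 fold change of 0.05. Taken in both directions, these calls were near the share over all genes (24.1% higher and 24.3% lower). RBBP7 stood at 0.28 ± 0.05, RBBP4 at 0.30 ± 0.06, CHD3 at -0.29 ± 0.05 and GATAD2A at -0.27 ± 0.07. With total-count scaling the split was 2 higher and 4 lower.

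Genes linked to EGR factors in T cells were called higher in 10 and lower in 2 of 20 tested, with a median of 0.40. The cell cycle inhibitor CDKN1A rose by 3.73 ± 0.21, the repressor BCL6 by 2.47 ± 0.18 and NDRG1 by 1.42 ± 0.10. CDKN1A averaged 1.07 ± 0.27 CPM in controls, under the filter's level, so it entered the test through the group in which it was high. ID3, an EGR1 target in thymocytes, fell by 0.96, from 109.8 ± 48.6 to 58.4 ± 28.4 CPM (SD, n = 8 each); this call was lost in batch 2 alone. DGKA, a diacylglycerol kinase of the anergy programme, fell by 0.17, a call lost without controls 6 and 7 and without control 7 or peroxide 4 or 5 alone. Genes that pair with or are linked to NR4A factors were called higher in 3 and lower in 3 of 15 tested, with a median of 0.05, near the share over all genes in both directions. With total-count scaling the split was 2 higher and 4 lower. The checkpoint receptor LAG3 rose by 2.75 ± 0.31, from 0.550 ± 0.371 CPM, under the filter's level, to 3.55 ± 1.41 CPM, and the apoptosis inducer BCL2L11 by 1.33 ± 0.08. IKZF2, BATF and BCL2 fell by 0.92, 0.50 and 0.21. Of 6 tested T cell activation markers, with a median of -0.17, NFKBIA rose by 1.12 ± 0.08, and CD40LG and CD28 fell by 0.53 and 0.22, both calls lost without controls 6 and 7. The CD28 call was also lost without any 1 of controls 3, 4 and 7 and peroxide 4, 5, 7 and 8 (adjusted p up to 0.0559, edgeR). TNFRSF4 stood at -0.34 ± 0.18 and did not pass.

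**Figure D4:**
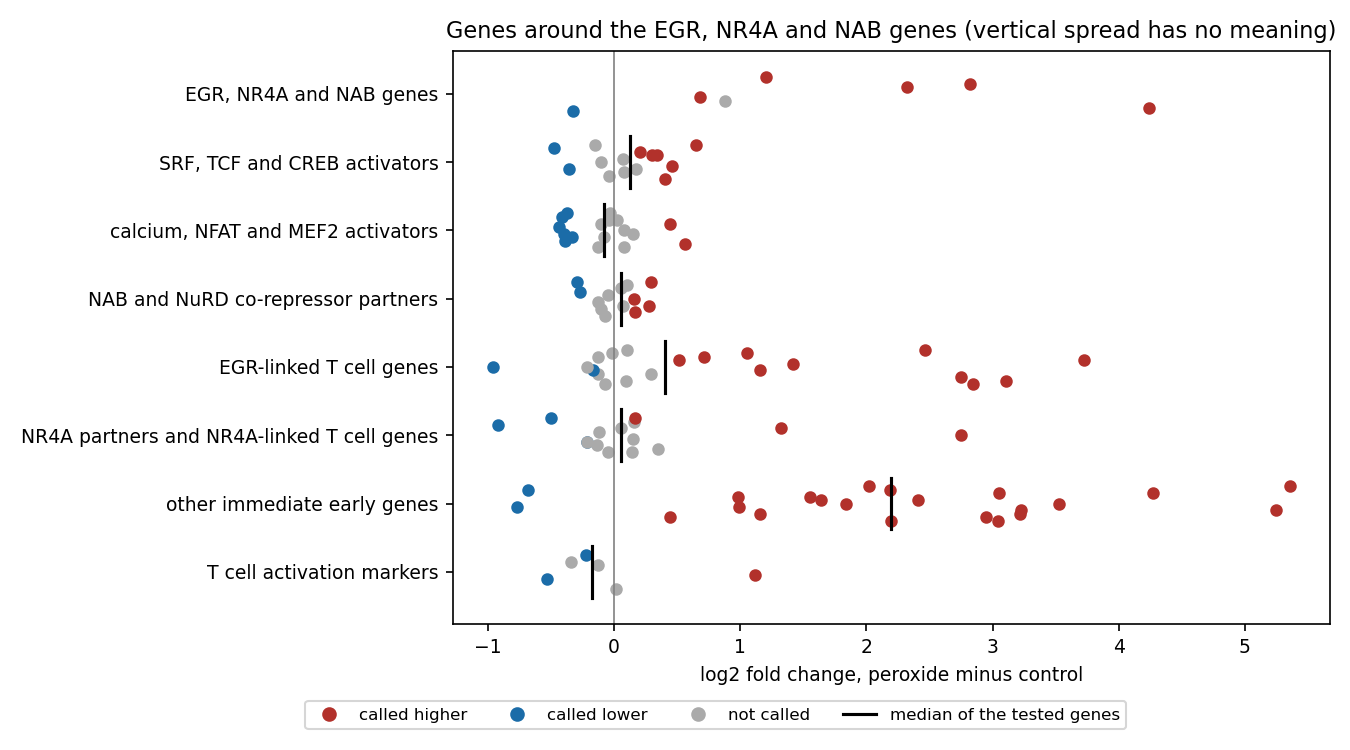
Log2 fold change (x axis) of each tested gene in the lists described, one list per row, coloured by call, with the median of the tested genes as a black bar for each list but the first. The other immediate early genes spread furthest to the right, with a median of 2.19, and the activator and NuRD lists cluster within 1 unit of 0.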

How the data were processed

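RNA-seq was done on 16 Jurkat libraries, with TRIzol extraction and a TruSeq preparation, per the labels' protocols. Per the submitters' processing notes, STAR 2.7.1a, HTSeq 0.6.1 and hg19 were used; the sources used here give no counting mode, strand setting or annotation release. Deposited values are raw read counts per gene, 1 table per library. The 5 rows that name no gene held 43.5% to 57.6% of counted reads and were left out. Symbols matched 60402 identifiers (99.6%).

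Genes were filtered with filterByExpr (cutoff 1.14 CPM in 8 libraries), leaving 14092, scaled with TMM and tested with edgeR 4.0.16 (R 4.3.3, quasi-likelihood test, batch and group as terms), with Benjamini-Hochberg adjustment over all genes. Standard errors are the log2 fold change over the root of its F statistic. Batch contrasts came from the interaction fit. Levels are TMM-scaled CPM. Same-group libraries differed beyond sampling noise (chi-square per degree of freedom 2.96 to 46.6), so all were kept. On simulated data in this design (13981 genes passing the filter) the test recovered 62% of 1.25-fold and 100% of 2-fold changes, and the interaction test (13976 genes) recovered 6% of 1.25-fold, 46% of 1.5-fold and 88% of 2-fold changes. The changes were put into randomly picked genes averaging at least 5 CPM, with no batch difference in the simulated means. These shares do not carry over to EGR1, EGR2 and EGR3, whose interaction SEs were 0.83, 1.06 and 1.10.

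The genes and lists were chosen with earlier results of these data known. Named were the 8 genes, EGR4, WT1, CD69, up to 4 genes per list with the lowest p-values among those averaging at least 1 CPM, list genes moving against the rest where 3 or fewer did, and up to 3 genes most like each gene by r. ARC and KLF4 were named outside this rule, for their control levels. Of the genes this rule names, 2, and those in the marker lists other than LAT, CD3G, CD2, CD28, CD14, ITGAM and COL1A1, are not reported here. Alternatives were total counts, no filter, DESeq2 1.42.0, limma-voom 3.58.1, no batch term, a replicate block, each batch alone and leaving out libraries. Promoters came from RefSeq (GRCh38.p14), a build other than the one named for counting, and were used for sequence only. Overlaps with other genes came from GENCODE release 29.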

Additional observations from a re-analysis of the deposited data

Results flagged for a closer look

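EGR3 had a batch by treatment interaction of -4.25 ± 1.10 on the log2 scale (Benjamini-Hochberg adjusted p = 0.0304 from the quasi-likelihood test of edgeR), so its difference was smaller in batch 2. All 8 peroxide libraries lay above 6 of the 8 controls, and the overlap was with controls 6 and 7. On CD69 and NR4A2, single libraries stood far from the rest of their group by Dixon's criterion. CD69 was at 89.8 CPM in control 6, against at most 45.7 CPM in the other controls. NR4A2 was at 0.544 CPM in peroxide 6, which rests on 5 reads. For normally distributed values chance flags about 1 in 20 such groups, and 22 groups were checked. CPM values need not be so distributed, and the groups share libraries, so that rate is only a guide here.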

How the results depend on the processing

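NR4A1, NR4A3, NAB1 and NAB2 kept direction and call under every alternative run. Leaving out single libraries gave 4 to 6 of the 8 genes called higher and 1 called lower, with 3189 to 3438 genes higher and 3221 to 3604 lower overall. Batch 2 alone called 3 of the 8 higher. Without a filter 5150 genes were called higher. EGR1 lost its call with DESeq2 (adjusted p = 0.0502), without a batch term (adjusted p = 0.0771, edgeR) and without control 1 and peroxide 5, which had the largest shares of reads not uniquely aligned, a setting chosen after seeing the data (adjusted p = 0.0765, edgeR). EGR2 was -0.22 in batch 2 alone, and without a filter it was called higher (0.80 ± 0.14, adjusted p = 1.39e-07, edgeR). The SE of EGR2 was 0.57 with the filter, and control 6 exceeded every peroxide library. The unfiltered p-value is therefore not read as the spread between libraries. Without a filter the interaction SE of EGR2 was likewise 0.29 against 1.06, so interaction calls without a filter carry the same limit. Among other named genes, the calls of MRTFB and BCL2 were lost in batch 1 alone, that of GATAD2A in batch 2 alone and those of DGKA, CD28 and CD40LG both in batch 1 alone and when the batch term was dropped. CD69, near 0, turned to -0.050 with total counts, -0.042 without a filter, -0.074 without a batch term, -0.70 in batch 2 alone (0.81, called higher, in batch 1 alone) and -0.077 without control 1 and peroxide 5, and ran from -0.13 to 0.43 over single libraries left out. The interaction called 688 genes, 1109 with DESeq2, 301 without controls 6 and 7, 246 without control 1 and peroxide 5 and 333 to 1229 over single libraries left out. Of the 8 genes it called 1, and 4 without a filter, 0 with limma-voom, 0 without controls 6 and 7, 0 without control 1 and peroxide 5 and 0 to 1 over single libraries left out; without control 1, 2, 3, 6 or 7 or peroxide 3 it called 0. Without controls 6 and 7 the interaction turned to 0.46 for EGR1, 1.04 for EGR2, -0.019 for NAB1 and 0.21 for NAB2, and NAB1 stood at -0.039 without control 1 and peroxide 5. Over single libraries left out it ran from -0.022 to 0.10 for NAB1 and from -0.19 to 0.13 for NAB2. The causes of these changes were not tested.

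With the replicate number as a block, 3313 genes were called higher and 3374 lower, and the 8 genes kept 5 higher and 1 lower. Same-numbered control and peroxide libraries shared deviations with r from -0.22 to 0.30, so the numbers were not taken as pairs. Of the calls named in the report, only that of DUSP2 was lost with the block (-0.64 ± 0.36, adjusted p = 0.160, edgeR). Depth limits NR4A2 and the control levels of EGR2, EGR3 and NR4A3.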
